A study of Mus musculus with 6 samples.

Results

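The genes described here are 9 genes of the actin cytoskeleton (Actb, Actg1, Tmsb4x, Tmsb10, Pfn1, Cfl1, Arpc5, Coro1a and Coro2a), out of the 34187 gene features counted in the single-cell libraries. They were listed by name, and the list was drawn up with values of these data known, namely that Actb and Tmsb4x were higher with mono-IL10 in NK cells, so that comparison in NK cells is given below without a test. The cells came from C57BL/6 mice, the strain that the methods name for this tumor model, carrying subcutaneous 6694c2vTRP1 tumors, a mouse pancreatic ductal adenocarcinoma line. The methods give the mice of this model an age of 6 to 8 weeks. Mice had been injected intraperitoneally with PBS, with mono-IL10 (a monomeric form of the cytokine IL-10, 26 µg per mouse) or with IL10/2-Trikine (30.6 µg per mouse), in which the IL-10 part is joined to a part that recruits the IL-2 receptor beta chain. Each group received 2 doses from day 8, every other day, and tumors were taken on day 14. CD45+ cells were isolated with beads, each mouse was marked with 1 of 5 hashtag antibodies, and the cells of a treatment were pooled into 1 library of the 10x 5′ kit. The labels state 5 mice for each treated group, and the PBS library held 5 hashtags, so 15 mice were compared.

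Actin is held by cells as single molecules and as filaments, and the balance between the forms drives movement, cell division and the contact that a T or NK cell makes with its target. Actb and Actg1 encode the beta and gamma actins of non-muscle cells. Tmsb4x and Tmsb10 encode thymosins, small proteins that hold actin monomers back from filaments, and Pfn1 encodes profilin, which brings monomers to growing filament ends. Cfl1 encodes cofilin, which severs old filaments, and Arpc5 a subunit of the Arp2/3 complex, which starts branches on existing filaments. Coro1a encodes a coronin that is abundant in leukocytes, where it binds actin filaments, and Coro2a another member of the coronin family.

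The thymosin pair is shown by its coding sequences because both genes belong to 1 small family and took different levels and directions below. In the GENCODE annotation of GRCm38, Tmsb4x lies on the minus strand at chrX:167207093-167209315, with its coding part at chrX:167207504-167208036, and Tmsb10 on the minus strand at chr6:72957347-72958748, with its coding part at chr6:72957621-72958012. Both coding sequences have 135 bases, of which 40 differ, an identity of 70.4%. Capitals mark the bases that differ between them.
Tmsb4x: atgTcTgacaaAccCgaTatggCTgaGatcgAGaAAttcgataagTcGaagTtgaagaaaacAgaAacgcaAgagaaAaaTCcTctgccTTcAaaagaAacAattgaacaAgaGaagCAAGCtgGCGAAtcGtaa
Tmsb10: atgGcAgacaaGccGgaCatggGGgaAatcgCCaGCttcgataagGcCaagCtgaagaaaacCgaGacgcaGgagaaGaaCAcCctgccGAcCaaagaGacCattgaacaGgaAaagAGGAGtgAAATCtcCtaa

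Actin genes are known targets of serum response factor, which binds the CArG box, and the promoter of Actg1 is shown because it held one. The RefSeq promoter table of GRCm38.p6, with 300 bases per window, matched 8 of the 9 genes and not Actb. A CArG box (CCWWWWWWGG, with A or T at each W, on either strand) was present in 1.63% of the 32851 windows and in 1 of the 8 matched genes. These 8 genes have 12 windows, up to 3 for a gene, so a count of genes gives some genes more than 1 chance of a match and is not on the same base as the share of windows, here and for the letters below. It starts 90 bases before the Actg1 start, on the minus strand within chr11:120348526-120348625, and is in capitals here.
Actg1: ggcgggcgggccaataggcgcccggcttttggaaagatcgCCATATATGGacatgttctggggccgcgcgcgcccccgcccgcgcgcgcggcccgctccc
The letters GGGCGG were present, on either strand, in 35.7% of all windows and in 8 of the 8 genes, CCAAT in 37.4% and in 4, and TATAAA in 13.6% and in 0. These counts describe letters in the windows and no binding was measured.

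Gene UMIs numbered 364814102 to 515236552 per library, lowest with IL10/2-Trikine and highest in PBS. Their median per barcode was 5198 to 8078, lowest with IL10/2-Trikine and highest with mono-IL10. The authors had annotated 2084 T and NK cells in 12 clusters, of which 1383 carried a mouse, and the other cells were grouped here by marker genes and are called "-like". Each mouse entered with at least 10 cells, which gave 876 T cells in 15 mice (17 to 160 per mouse), 456 NK cells in 14 mice (10 to 61 per mouse), 20732 macrophage or monocyte-like cells (420 to 2419 per mouse) and 18830 tumor epithelial-like cells (559 to 2889 per mouse). The T cells are all annotated clusters other than NK and Cycling_NK, so they include the gdT/NKT and Cycling_T clusters, and the NK cells are the NK cluster alone. In NK cells mono-IL10 mouse 3 was left out because it had fewer cells. The tumor epithelial-like cells were present although the samples are labelled CD45+, and they were added as a comparison after the data had been seen. Between 408 and 700 barcode texts occurred in both of a pair of libraries. Each treatment was 1 library, so an effect of the treatment and one of the library cannot be told apart, and p-values measure the spread between mice within libraries. The PBS mice served both treated groups, so the 3 comparisons share samples. Values below are UMIs of a gene per 1000000 gene UMIs (CPM), summed over the cells of a type in a mouse, and they are compared between cells and groups and not between genes. All 9 genes passed the filter on low counts in each of the 4 cell types, and a gene passed the threshold when its edgeR p, adjusted over all genes tested in that cell type, was under 0.05.

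In PBS mice the 9 genes followed different orders across 7 cell types, T cells being given beside them because they join several annotated clusters. Clusters were made from the same genes, so these levels, each a mean ± SD over n = 5 mice, are a description. Actb was highest in dendritic-like cells, at 8639 ± 516 CPM, with every mouse above every mouse of the macrophage-like cells, at 4828 ± 303. The next levels overlapped from 1 neighbour to the next, from neutrophil-like cells at 3779 ± 632 to fibroblast-like cells at 3253 ± 225, and NK cells lay between them at 3483 ± 97.4, with T cells at 4304 ± 101. Actg1 was also highest in dendritic-like cells, at 3834 ± 199, and neutrophil-like cells followed at 3216 ± 174, without overlap on either side. NK and fibroblast-like cells were the lowest for Actg1 and overlapped.

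The thymosins were arranged differently. Tmsb4x was highest in dendritic-like cells, at 26014 ± 1103, overlapped between NK cells, at 12879 ± 970.4, and macrophage-like cells, and was lowest in tumor epithelial-like cells, at 4224 ± 272. Tmsb10 was highest in NK cells, at 14675 ± 1535, and all NK values lay above those of fibroblast-like cells, at 8338 ± 499.99, with the T cells between them at 10539.5 ± 440.4. It was low in macrophage-like cells, at 2065 ± 457, and lowest in neutrophil-like cells, at 1031 ± 218, without overlap between these cell types.

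Coro1a separated leukocytes from other cells. It was 998 ± 63.0 in T cells, 689 ± 236 in NK cells and 443 ± 7.93 in macrophage-like cells, against 45.6 ± 12.1 in endothelial-like, 11.02 ± 2.29 in tumor epithelial-like and 9.40 ± 3.44 in fibroblast-like cells. Coro2a was highest in dendritic-like cells, at 101 ± 27.2, and lowest in fibroblast-like cells, at 1.84 ± 1.34. Pfn1 was 2644 ± 144 in T cells and 2635 ± 126 in tumor epithelial-like cells, which overlapped with each other and the latter with NK cells, while Cfl1 ranged from 583 ± 61.9 in neutrophil-like to 1164 ± 75.7 in endothelial-like cells and Arpc5 from 195 ± 5.12 in tumor epithelial-like to 497 ± 36.7 in dendritic-like cells.

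**Figure D1:**
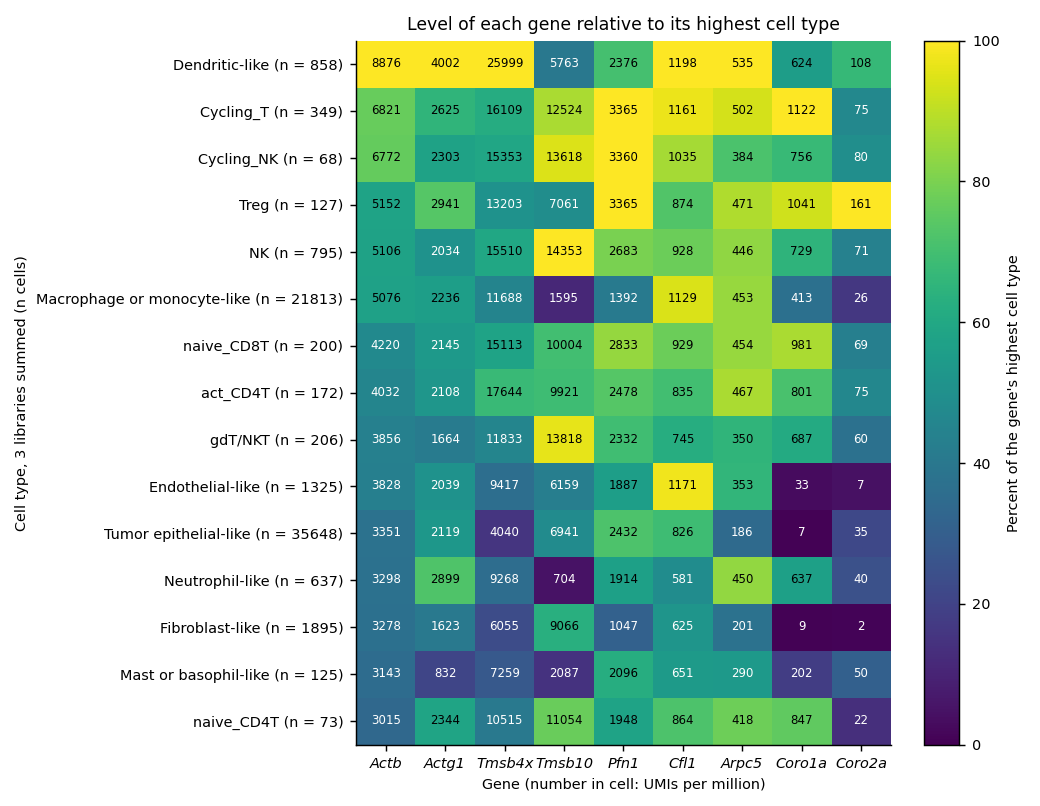
Heat map of the level of each of the 9 genes (columns) in each cell type (rows, with the number of cells, 3 libraries summed), colored as a percent of the gene's highest cell type, with the level in CPM printed in each field. Cells with and without a mouse are summed, so the levels are not those of the means per mouse. Actb and Tmsb4x reach their highest level in dendritic-like cells, at 8876 and 25999 CPM, and Coro1a is at 6.85 in tumor epithelial-like cells.

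Counted together, and as mean ± SD over n = 5 mice (n = 4 for mono-IL10 in NK cells), the 9 genes made up 3.41% ± 0.0665 of the UMIs of T cells in PBS, and 4.07% ± 0.332 and 4.08% ± 0.240 with mono-IL10 and IL10/2-Trikine. In NK cells the shares were 3.72% ± 0.230, 4.44% ± 0.240 and 4.43% ± 0.182 in the same order. In T cells all mice of both treated groups lay above all PBS mice. The shares in NK cells include Actb and Tmsb4x, on which the list was chosen, and are a description. The order differed in macrophage-like cells, where PBS had 2.50% ± 0.0828, against 2.28% ± 0.0888 with mono-IL10 and 2.33% ± 0.0760 with IL10/2-Trikine. The ranges of the groups were 2.39% to 2.62%, 2.18% to 2.42% and 2.24% to 2.41%, so all 3 overlapped. Tumor epithelial-like cells had 2.03% ± 0.0480, 2.10% ± 0.0956 and 1.93% ± 0.0436.

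In T cells the genes that passed the threshold were mostly higher with treatment. Here and below the levels in CPM are relative to all UMIs of a mouse and cell type, while the log2 differences are fitted with TMM size factors, so a small log2 difference can have the opposite sign from the difference of the means. Calls that a fit without size factors ends or adds in these comparisons of the 9 genes are given with each gene. For IL10/2-Trikine and PBS, 4 of the 9 genes passed and all 4 were higher (Actb, Actg1, Tmsb10 and Coro2a), where 8.97% of all 3189 genes tested passed (5.14% higher and 3.83% lower). The median log2 difference was 0.21 over the 9 genes and -0.011 over all genes. With mono-IL10 against PBS, 3 of the 9 passed and all 3 were higher (Actb, Tmsb4x and Pfn1), where 1.72% of all genes passed (1.19% higher and 0.533% lower), with medians of 0.24 and 0.0047. Actb and Tmsb4x are the genes on which the list was chosen, from NK cells of the same libraries and the same comparison. This count is therefore not independent of that choice. Between the treatments, 2 were higher with IL10/2-Trikine (Actb and Coro2a) and 2 lower (Tmsb4x and Pfn1), where 12.3% of all genes passed (6.05% higher and 6.21% lower).

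Actb passed the threshold in all 3 comparisons of T cells. Its values in mice 1 to 5 were 4402, 4331, 4319, 4337 and 4132 CPM in PBS, 5567, 5369, 5243, 4139 and 4992 in mono-IL10 and 6987, 7509, 6599, 7159.8 and 7268 in IL10/2-Trikine. All IL10/2-Trikine mice lay above all mice of both other groups, and mono-IL10 overlapped with PBS through mouse 4. The mean in IL10/2-Trikine was 1.65 times that in PBS, a log2 difference of 0.74 ± 0.065 (SE) with edgeR adjusted p = 5.41e-08, and the difference from mono-IL10 was 0.45 ± 0.064 (SE) with edgeR adjusted p = 2.95e-05. The difference of mono-IL10 from PBS was 0.29 ± 0.064 (SE) with edgeR adjusted p = 0.0148. That last difference was no longer past the threshold on leaving out PBS mouse 3 or 5 or mono-IL10 mouse 1, 2, 3 or 5, with edgeR adjusted p up to 0.107 and a log2 difference of 0.24 to 0.29, and without size factors it was 0.22 (edgeR adjusted p = 0.0556).

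The T cells of the groups were not of the same kinds, and Actb was followed within and without the cells in cycle. The cluster Cycling_T made up 174 of 299 annotated T cells in IL10/2-Trikine (58.2%), 120 of 580 in mono-IL10 (20.7%) and 55 of 342 in PBS (16.1%). Naive clusters made up 4 of these cells in IL10/2-Trikine (1.34%), 221 in mono-IL10 (38.1%) and 73 in PBS (21.3%). These counts include annotated cells without a mouse, which the fits leave out. Without the Cycling_T cluster the Actb difference of IL10/2-Trikine was 0.73 from PBS (edgeR adjusted p = 3.38e-05) and 0.69 from mono-IL10 (edgeR adjusted p = 0.000124), with 3 IL10/2-Trikine mice left. In Cycling_T cells alone it was 0.61 from PBS (edgeR adjusted p = 0.0104), with 2 PBS mice left, and 0.13 from mono-IL10 (edgeR adjusted p = 0.492). The mono-IL10 difference from PBS was 0.043 without the Cycling_T cells (edgeR adjusted p = 0.878). Without the naive clusters Actb differed by 0.66 for IL10/2-Trikine from PBS (edgeR adjusted p = 6.09e-06), and the mono-IL10 difference from PBS, 0.24, was not past the threshold (edgeR adjusted p = 0.120). The differences of mono-IL10 from PBS for Tmsb4x and Pfn1, described below, were 0.50 and 0.30 without the naive clusters (edgeR adjusted p = 0.000429 and 0.0160).

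Depth per cell and marker levels moved with treatment too. T cells had a median of 3361.5 to 4204 UMIs over the mono-IL10 mice, above the 2599 to 2839 of PBS and the 2472 to 3074 of IL10/2-Trikine. With each cell thinned to 1500 UMIs the Actb difference of IL10/2-Trikine from PBS was 0.94 (edgeR adjusted p = 2.04e-09), and that of mono-IL10 from PBS, 0.30, was outside the threshold (edgeR adjusted p = 0.0633). The summed level of the 7 NK markers in T cells also moved with treatment, from 327 to 582 CPM in PBS and 624 to 1178 in mono-IL10 to 1516 to 2581 in IL10/2-Trikine, with 7 of 7 detected in every group and Gzma the highest, and its part in these results was not tested. The 8 T cell markers themselves summed to 2662 to 3321 CPM in PBS, 3981 to 4391 with mono-IL10 and 1667 to 2324 with IL10/2-Trikine, where every mouse lay below every mouse of the other groups, with 8 of 8 detected in every mouse. The NK markers in IL10/2-Trikine T cells, at a mean of 2037 CPM, stood near the 1998 of the NK cells of PBS mice. The part of these markers in the differences between groups was not tested. The sums of the 12 macrophage markers in T cells overlapped between all groups (931 to 1312, 869 to 1154 and 573 to 1674). The highest of these markers was not the same gene in each group. It was Ly6c2 in PBS (363 CPM) and mono-IL10 (391 CPM), and Apoe with IL10/2-Trikine (283 CPM). The overlap of the sums therefore does not show that each marker stayed the same, and their part was not tested.

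**Figure D2:**
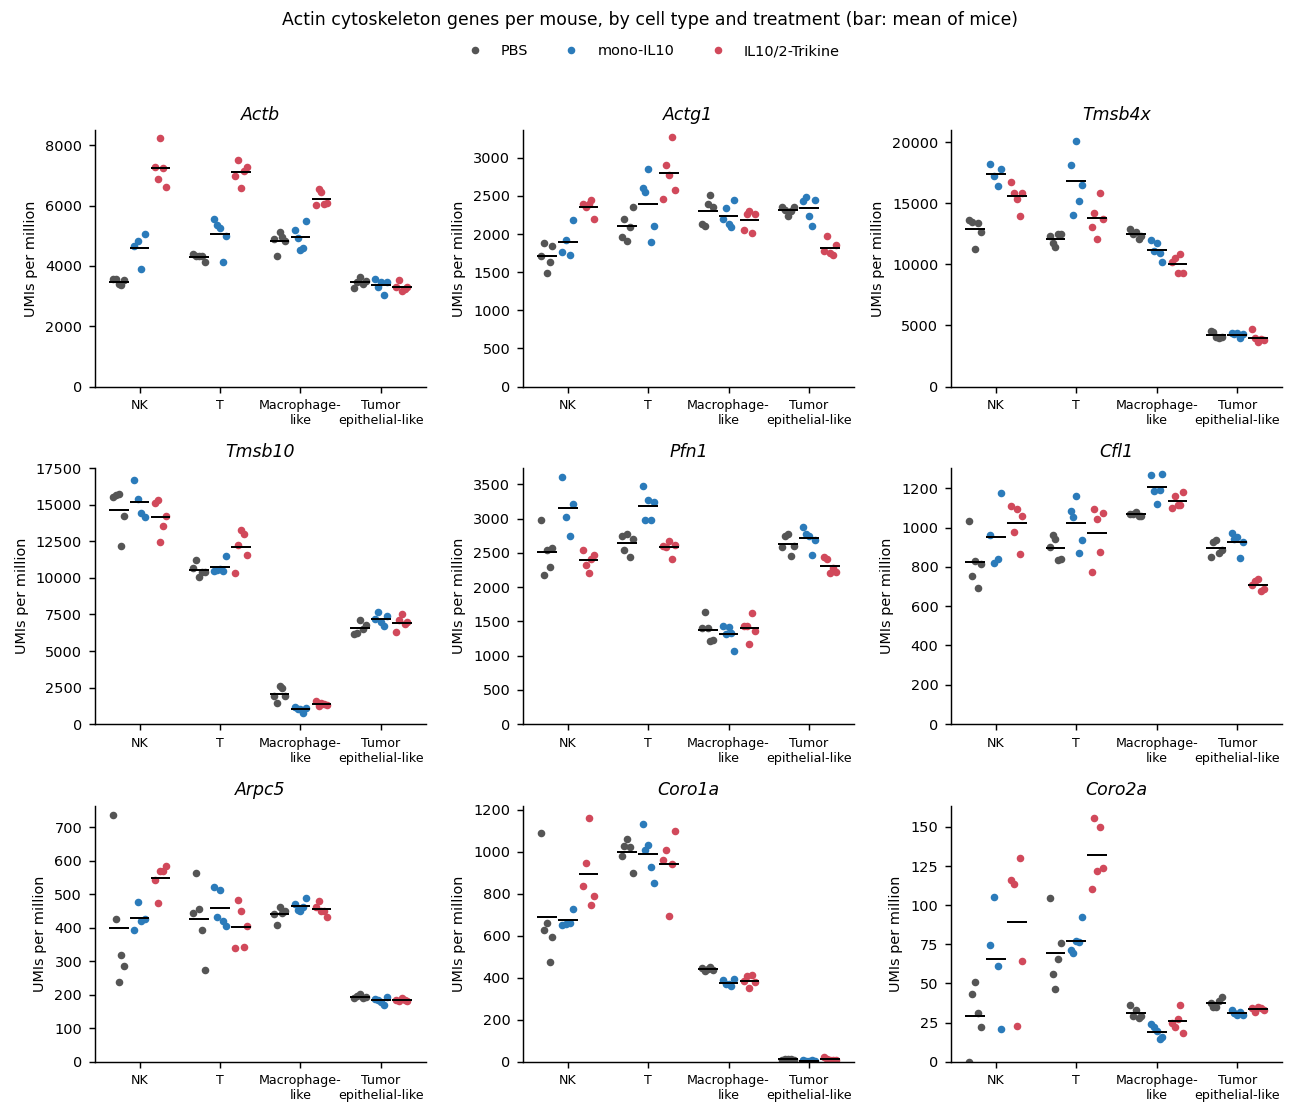
Level of each gene in CPM (vertical axis from 0) for every mouse (points, colored by treatment) in 4 cell types, with a bar at the mean of the mice. In T cells all 5 IL10/2-Trikine mice lie above all PBS mice for Actb, and in macrophage-like cells all 5 mono-IL10 mice lie below all PBS mice for Tmsb10.

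Actg1, the other actin gene, had 1967, 2203, 1914, 2097 and 2354 CPM in PBS T cells, 2608, 2551, 2849.6, 1893 and 2101 in mono-IL10 and 2455, 2912, 2778, 3270 and 2579.9 in IL10/2-Trikine. All IL10/2-Trikine mice lay above all PBS mice, and the mono-IL10 mice overlapped with both groups. IL10/2-Trikine differed from PBS by 0.42 ± 0.10 (SE) with edgeR adjusted p = 0.00947, and those from mono-IL10, 0.18, and of mono-IL10 from PBS, 0.24, were not past the threshold. Without Cycling_T cells the difference from PBS was 0.38 (edgeR adjusted p = 0.129).

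Among the monomer-binding genes of T cells, Tmsb4x and Pfn1 were highest with mono-IL10. Tmsb4x had 12300.4, 11757, 11405, 12518 and 12491 CPM in PBS, 18158, 14011, 20151, 15222 and 16495 in mono-IL10 and 13067, 14209, 12121, 15837 and 13751 in IL10/2-Trikine. All mono-IL10 mice lay above all PBS mice, and the IL10/2-Trikine mice overlapped with both groups. The difference of mono-IL10 from PBS was 0.53 ± 0.073 (SE, edgeR adjusted p = 0.000238) and that of IL10/2-Trikine from mono-IL10 -0.32 ± 0.073 (SE, edgeR adjusted p = 0.00393), while that of IL10/2-Trikine from PBS, 0.21 ± 0.073 (SE), did not pass the threshold (edgeR adjusted p = 0.0758) except without mono-IL10 mouse 3 (0.20, edgeR adjusted p = 0.0479) or IL10/2-Trikine mouse 3 (0.25, edgeR adjusted p = 0.0475). Without Cycling_T cells the first was 0.51 (edgeR adjusted p = 0.00405) and the second -0.15 (edgeR adjusted p = 0.503).

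Pfn1 had 2749.9, 2544, 2779, 2444 and 2704 CPM in PBS T cells, 3476, 2982, 3271, 2980.4 and 3243 in mono-IL10 and 2605, 2586, 2674, 2415 and 2621 in IL10/2-Trikine. All mono-IL10 mice lay above all mice of the other groups, which overlapped with each other. It was higher in mono-IL10 than in PBS by 0.33 ± 0.064 (log2, SE, edgeR adjusted p = 0.00469), and the difference of IL10/2-Trikine from mono-IL10 was -0.34 ± 0.066 (log2, SE, edgeR adjusted p = 0.00106). Without mono-IL10 mouse 1 the first was 0.28, edgeR adjusted p = 0.0582, and without Cycling_T cells the values were 0.22 (edgeR adjusted p = 0.187) and -0.32 (edgeR adjusted p = 0.0530).

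Tmsb10 was higher with IL10/2-Trikine than with PBS in T cells by a smaller amount. Its values were 10648, 11229.8, 10049.9, 10388 and 10382 in PBS, 10444, 10559, 10626, 10494 and 11524 in mono-IL10 and 10367, 12266, 13249, 12973 and 11552 in IL10/2-Trikine. The groups overlapped, with 4 of 5 IL10/2-Trikine mice above all mice of the other groups. The log2 difference from PBS was 0.22 ± 0.055 (SE, edgeR adjusted p = 0.0148), which fell to 0.18 on leaving out PBS mouse 3 or IL10/2-Trikine mouse 3 (edgeR adjusted p = 0.0503 and 0.0505). Without Cycling_T cells it was 0.046 (edgeR adjusted p = 0.882). The difference from mono-IL10, 0.13 ± 0.055 (SE, edgeR adjusted p = 0.123), passed without IL10/2-Trikine mouse 1 (0.20, edgeR adjusted p = 0.00950) or without size factors, at 0.19 (edgeR adjusted p = 0.0167).

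Coro2a had low counts and the largest fold among the 9 genes in T cells with IL10/2-Trikine. It had 105, 55.8, 46.1, 65.8 and 75.6 CPM in PBS, 71.1, 69.2, 77.2, 76.7 and 92.4 in mono-IL10 and 111, 156, 122, 149.6 and 124 in IL10/2-Trikine. All IL10/2-Trikine mice lay above all mice of the other groups, which overlapped with each other. The log2 difference was 0.97 ± 0.24 (SE) from PBS (edgeR adjusted p = 0.0110) and 0.76 ± 0.21 (SE) from mono-IL10 (edgeR adjusted p = 0.0155). Without IL10/2-Trikine mouse 2, the values were 0.85, edgeR adjusted p = 0.0709, and 0.66, edgeR adjusted p = 0.106, and without Cycling_T cells they were 1.21 (edgeR adjusted p = 0.0925) and 0.87 (edgeR adjusted p = 0.141). Cfl1, Arpc5 and Coro1a passed the threshold in 0 of the 3 T cell comparisons by edgeR and by DESeq2, with log2 differences from -0.19 to 0.24. Of these 9 values 1 had an unadjusted p under 0.05, Cfl1 with mono-IL10 against PBS (log2 0.24 ± 0.11, SE, edgeR adjusted p = 0.283).

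In NK cells the values of Actb and Tmsb4x are a description, because both were chosen from these cells. Actb had 3568, 3553, 3399.98, 3357 and 3538 CPM in the 5 PBS mice, 4647, 4826, 3901 and 5063 in the 4 mono-IL10 mice and 7287, 6869, 8233, 7244 and 6604 in the 5 IL10/2-Trikine mice. The 3 groups did not overlap, and the means stood at 1.32 times PBS with mono-IL10 and 2.08 times PBS with IL10/2-Trikine. Tmsb4x had 13623, 13473, 11282, 13380.4 and 12636 in PBS, 18193, 17258, 16437 and 17787 in mono-IL10 and 16780, 15847, 15394, 13989 and 15817 in IL10/2-Trikine. All treated mice lay above all PBS mice, and the treated groups overlapped with each other. The fitted log2 differences of Tmsb4x were 0.49 for mono-IL10 from PBS, 0.28 for IL10/2-Trikine from PBS and -0.21 for IL10/2-Trikine from mono-IL10.

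For the other 7 genes the IL10/2-Trikine comparisons in NK cells were tested. Against PBS 1 of 7 passed, Actg1, where 2.53% of all 2448 genes did (1.35% higher and 1.18% lower), with a median log2 difference of 0.42 over these 7 genes and -0.017 over all genes. Actg1 had 1710.3, 1885, 1489, 1639.5 and 1846 CPM in PBS, 1768, 1918, 1724 and 2187 in mono-IL10 and 2399, 2349, 2395, 2442 and 2204 in IL10/2-Trikine. All IL10/2-Trikine mice lay above all mice of the other groups, and those of PBS and mono-IL10 overlapped. Its difference from PBS was 0.46 ± 0.12 (log2, SE, edgeR adjusted p = 0.0287), and the call was lost without PBS mouse 1 or 3 or IL10/2-Trikine mouse 1, 2 or 4, where the log2 difference was 0.40 to 0.47 and the edgeR adjusted p 0.0569, 0.0778, 0.0746, 0.0682 and 0.0575. Against mono-IL10 0 of 7 passed by edgeR and 1 by DESeq2, with 3 at an unadjusted p under 0.05, where 0.817% of all genes passed (0.286% higher and 0.531% lower). Pfn1, the 1 that DESeq2 called, had 2978, 2180.4, 2537, 2292 and 2571 CPM in PBS, 3612, 3025, 2749 and 3209 in mono-IL10 and 2541, 2317, 2212, 2407 and 2473 in IL10/2-Trikine. All mono-IL10 mice lay above all IL10/2-Trikine mice, and the PBS mice overlapped with both. Its difference of -0.44 ± 0.11 (log2, SE) from mono-IL10 lay just outside the threshold with edgeR (edgeR adjusted p = 0.0532), and inside it without mono-IL10 mouse 4 (-0.52, edgeR adjusted p = 0.0339) or without PBS mouse 1, 3 or 5 (edgeR adjusted p = 0.0431, 0.0481 and 0.0397). The 12 macrophage markers in NK cells summed to 177 to 1340.5 CPM in PBS, 752 to 1179 in mono-IL10 and 981 to 1238 in IL10/2-Trikine, with Adgre1 at 0 in all groups, Csf1r at 0 in PBS and Ccr2, which NK cells also express, the highest. The 7 NK markers themselves, all detected in every mouse, summed to 1179 to 3108 CPM in PBS, 2966 to 3987 with mono-IL10 and 4295 to 11198 with IL10/2-Trikine, the last above all mice of the other groups. The median number of UMIs per NK cell was 2114 to 2786 with IL10/2-Trikine, 2713 to 4110.5 in PBS and 3672 to 6040 with mono-IL10. With each cell thinned to 1500 UMIs, 2 of the 7 genes passed against PBS, Actg1 at 0.52 (edgeR adjusted p = 0.0131) and Coro1a at 0.83 (edgeR adjusted p = 0.00914), with no value for Coro2a. Over all genes 57 of 780 passed in that fit. The part of the markers in these results was not tested.

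The filament-binding genes of NK cells had fewer UMIs than the actin and thymosin genes. Arpc5 and Coro1a had their widest spread between mice in PBS, with SDs of 200 and 236 CPM. With mono-IL10 the SDs were 35.6 and 35.2, and with IL10/2-Trikine 44.3 and 166. The NK cells of a mouse held 33913 to 128696 UMIs in PBS, 171570 to 320616 with mono-IL10 and 43848 to 158387 with IL10/2-Trikine. PBS mouse 1 had the fewest of the mice in the fit, with 33913 UMIs in 10 cells. The part of this depth in the spread was not tested. Arpc5 had 737, 426, 237, 319 and 286 CPM in PBS, 393, 478, 419 and 427 in mono-IL10 and 542, 474, 570.2, 569 and 585 in IL10/2-Trikine NK cells. PBS mouse 1 was the highest of all, and the other PBS mice lay below all IL10/2-Trikine mice. Coro1a had 1091, 625, 659.7, 474 and 593 in PBS, 652, 659, 661 and 727 in mono-IL10 and 838, 947, 1163, 747 and 790.2 in IL10/2-Trikine, again with PBS mouse 1 far above the other PBS mice. Against PBS the log2 differences of IL10/2-Trikine were 0.52 for Arpc5 (edgeR adjusted p = 0.178), 0.42 for Coro1a (edgeR adjusted p = 0.253), 1.45 for Coro2a (edgeR adjusted p = 0.133) and 0.33 for Cfl1 (edgeR adjusted p = 0.333), all outside the threshold with edgeR, while DESeq2 placed Arpc5 and Coro1a inside it (DESeq2 adjusted p = 0.0357 and 0.0270). Without PBS mouse 1 Arpc5 was inside the threshold also with edgeR (0.72, edgeR adjusted p = 0.0293). Coro2a was at 0 in PBS mouse 1, the mouse with the fewest NK cell UMIs. Tmsb10 and Pfn1 differed from PBS by -0.042 and -0.057, outside the threshold.

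When mono-IL10 was set against PBS in NK cells, the fitted log2 differences were 0.20 for Actg1, 0.10 for Tmsb10, 0.39 for Pfn1, 0.28 for Cfl1, 0.22 for Arpc5, 0.076 for Coro1a and 0.97 for Coro2a, given without a test.

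Macrophage-like cells had more cells and more UMIs per mouse, and the genes went in both directions. Against PBS, 1 of the 9 genes was higher with IL10/2-Trikine (Actb) and 3 were lower (Tmsb4x, Tmsb10 and Coro1a), where 8.51% of all 12520 genes were called higher and 8.07% lower. With mono-IL10 against PBS 2 were higher (Cfl1 and Arpc5) and 3 lower (Tmsb10, Coro1a and Coro2a), where 12.0% and 13.3% of all genes were (25.3% in all). Compared with mono-IL10, IL10/2-Trikine had 1 gene higher (Actb) and 2 lower (Tmsb4x and Cfl1), where 5.18% and 5.70% of all genes were (10.9% in all). The median log2 differences of the 9 genes were -0.087, -0.0025 and -0.041 in the order of these comparisons, against 0.0038, -0.018 and 0.022 over all genes. Depth per cell moved with treatment in these cells, with a median of 2396 to 3011 UMIs over the IL10/2-Trikine mice, below the 4477 to 6006 of PBS and the 4602.5 to 7149 of mono-IL10. Markers of other cell types moved too. The 7 NK markers summed to 7.73 to 13.9 CPM in PBS, 1.52 to 13.6 with mono-IL10 and 21.0 to 42.6 with IL10/2-Trikine, all 7 detected in each group and Gzma the highest. The 8 T cell markers summed to 33.5 to 48.6, 18.1 to 40.7 and 48.6 to 85.5 in the same order, all 8 detected, and the 7 tumor epithelial markers to 31.6 to 43.6, 22.5 to 39.9 and 38.5 to 94.3. The part of depth and of these markers in the results for macrophage-like cells was not tested.

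Actb was higher with IL10/2-Trikine also in these cells. It had 4908, 4326, 5133, 4949.8 and 4826 CPM in PBS, 5195, 4919, 4544, 4593 and 5493 in mono-IL10 and 6009, 6539.9, 6444, 6052 and 6092 in IL10/2-Trikine. All 5 IL10/2-Trikine values were above the highest of the other groups, and those of PBS and mono-IL10 overlapped. The log2 difference was 0.36 ± 0.061 (SE) from PBS (edgeR adjusted p = 0.000483) and 0.25 ± 0.061 (SE) from mono-IL10 (edgeR adjusted p = 0.0112), and that of mono-IL10 from PBS was 0.11 ± 0.060 (SE, edgeR adjusted p = 0.221).

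The largest cluster of macrophage-like cells differed between libraries. Cluster 9 was the largest in PBS with 1252 cells, cluster 41 in mono-IL10 with 1418 and cluster 39 in IL10/2-Trikine with 1367, counting cells with and without a mouse. In the 5 clusters that had at least 250 cells in every library, each fitted alone after the data had been seen, the Actb difference of IL10/2-Trikine from PBS ran from 0.23 to 0.42 and passed the threshold in clusters 19, 27 and 30. In clusters 39 and 51 the edgeR adjusted p was 0.0709 and 0.209. From mono-IL10 it was 0.10 to 0.28 with edgeR adjusted p from 0.0820 to 0.680.

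Tmsb10 was the gene of the 9 with the largest log2 difference in macrophage-like cells. It had 1905, 1446, 2589, 2437 and 1947 CPM in PBS, 1196, 1034, 1038, 783 and 1083 in mono-IL10 and 1597, 1229, 1444, 1348 and 1320.2 in IL10/2-Trikine. All mono-IL10 mice lay below all mice of the other groups, and those of PBS and IL10/2-Trikine overlapped. The difference from PBS was -0.93 ± 0.13 (SE) with mono-IL10 (edgeR adjusted p = 2.96e-05) and -0.58 ± 0.13 (SE) with IL10/2-Trikine (edgeR adjusted p = 0.00378). Between the treatments Tmsb10 passed on leaving out PBS mouse 2 (0.36, edgeR adjusted p = 0.0386) or without size factors, at 0.44 (edgeR adjusted p = 0.0348), but not with all mice and TMM size factors. In the single clusters the mono-IL10 difference ran from -0.29 (edgeR adjusted p = 0.0760) in cluster 27 to -0.80 in cluster 30, and passed in the 4 others. The IL10/2-Trikine difference was -0.070 in cluster 19 (edgeR adjusted p = 0.934) and -0.22 in cluster 27 (edgeR adjusted p = 0.286), and -0.26 in cells with at least 2000 detected genes (edgeR adjusted p = 0.343).

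Tmsb4x had 12887, 12458, 12629, 12077 and 12341 CPM in PBS macrophage-like cells, 12036, 11113, 11729.6, 10950.2 and 10167 in mono-IL10 and 10208, 10563, 9337, 10836 and 9314 in IL10/2-Trikine. All treated mice lay below all PBS mice, and the treated groups overlapped with each other. It was lower with IL10/2-Trikine than with PBS, by a log2 difference of -0.32 ± 0.070 (SE, edgeR adjusted p = 0.00357), and than with mono-IL10, by -0.24 ± 0.070 (SE, edgeR adjusted p = 0.0337). The difference of mono-IL10 from PBS, -0.085 ± 0.069 (SE), did not pass although the mice did not overlap (edgeR adjusted p = 0.405). That of IL10/2-Trikine from mono-IL10 was lost without size factors, at -0.16 (edgeR adjusted p = 0.0944), and without mono-IL10 mouse 1, 2, 3 or 4 or IL10/2-Trikine mouse 1, 3 or 5, with a log2 difference of -0.24 to -0.20 and edgeR adjusted p from 0.0581 to 0.0669.

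The severing gene Cfl1 and the branching gene Arpc5 had log2 differences of at most 0.25 in size. Cfl1 was at 1068 ± 7.78 CPM (mean ± SD over n = 5 mice, as for the means that follow) in PBS, and 1207 ± 63.1 and 1133 ± 36.3 with mono-IL10 and IL10/2-Trikine, and was higher in mono-IL10 than in PBS by 0.25 ± 0.053 (log2, SE, edgeR adjusted p = 0.00208). Its difference of IL10/2-Trikine from mono-IL10, -0.17 ± 0.053 (SE, edgeR adjusted p = 0.0465), was lost on leaving out any of 8 mice, all mono-IL10 and IL10/2-Trikine mice except mouse 3 of the first and mouse 5 of the second, with a log2 difference of -0.18 to -0.16 and edgeR adjusted p up to 0.121, and without size factors it was -0.090 (edgeR adjusted p = 0.258). Arpc5 was 442 ± 19.99 in PBS and 465 ± 15.1 in mono-IL10, a difference of 0.15 ± 0.049 (log2, SE, edgeR adjusted p = 0.0347). It was lost without size factors, at 0.075 (edgeR adjusted p = 0.303), and without PBS mouse 1 or 2 or mono-IL10 mouse 1, 4 or 5, with log2 differences of 0.14 to 0.15 and edgeR adjusted p from 0.0506 to 0.0656. In the clusters fitted alone, neither Cfl1 nor Arpc5 passed with mono-IL10 against PBS.

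Both coronins were lower with mono-IL10 than with PBS in macrophage-like cells. Coro2a had 36.0, 29.1, 32.9, 27.8 and 29.0 CPM in PBS, 23.8, 22.1, 19.4, 14.6 and 15.9 in mono-IL10 and 24.8, 22.3, 27.4, 36.5 and 18.5 in IL10/2-Trikine. All mono-IL10 mice lay below all PBS mice, and the IL10/2-Trikine mice overlapped with both groups. Its difference of mono-IL10 from PBS was -0.60 ± 0.13 (log2, SE, edgeR adjusted p = 0.00252), and that of IL10/2-Trikine from PBS passed only without IL10/2-Trikine mouse 4 among the mice left out in turn (-0.43, edgeR adjusted p = 0.0470). In the clusters fitted alone, neither Coro2a nor Coro1a passed with mono-IL10 against PBS. Coro1a was 443 ± 7.93 in PBS, and 377 ± 13.9 and 387 ± 25.6 with mono-IL10 and IL10/2-Trikine, with differences from PBS of -0.16 ± 0.055 (log2, SE, edgeR adjusted p = 0.0370) and -0.20 ± 0.056 (log2, SE, edgeR adjusted p = 0.0176). The mono-IL10 difference of Coro1a was lost on leaving out any PBS mouse, mono-IL10 mouse 1, 2, 3 or 4 or IL10/2-Trikine mouse 5, with log2 differences of -0.16 to -0.14 and edgeR adjusted p from 0.0617 to 0.0957. The IL10/2-Trikine difference was 0.25 in cluster 19 alone, the opposite direction (edgeR adjusted p = 0.430), and no single cluster passed. Actg1 and Pfn1 did not pass in macrophage-like cells, with log2 differences of -0.12 to 0.031 and of -0.0025 to 0.019 in the 3 comparisons.

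**Figure D3:**
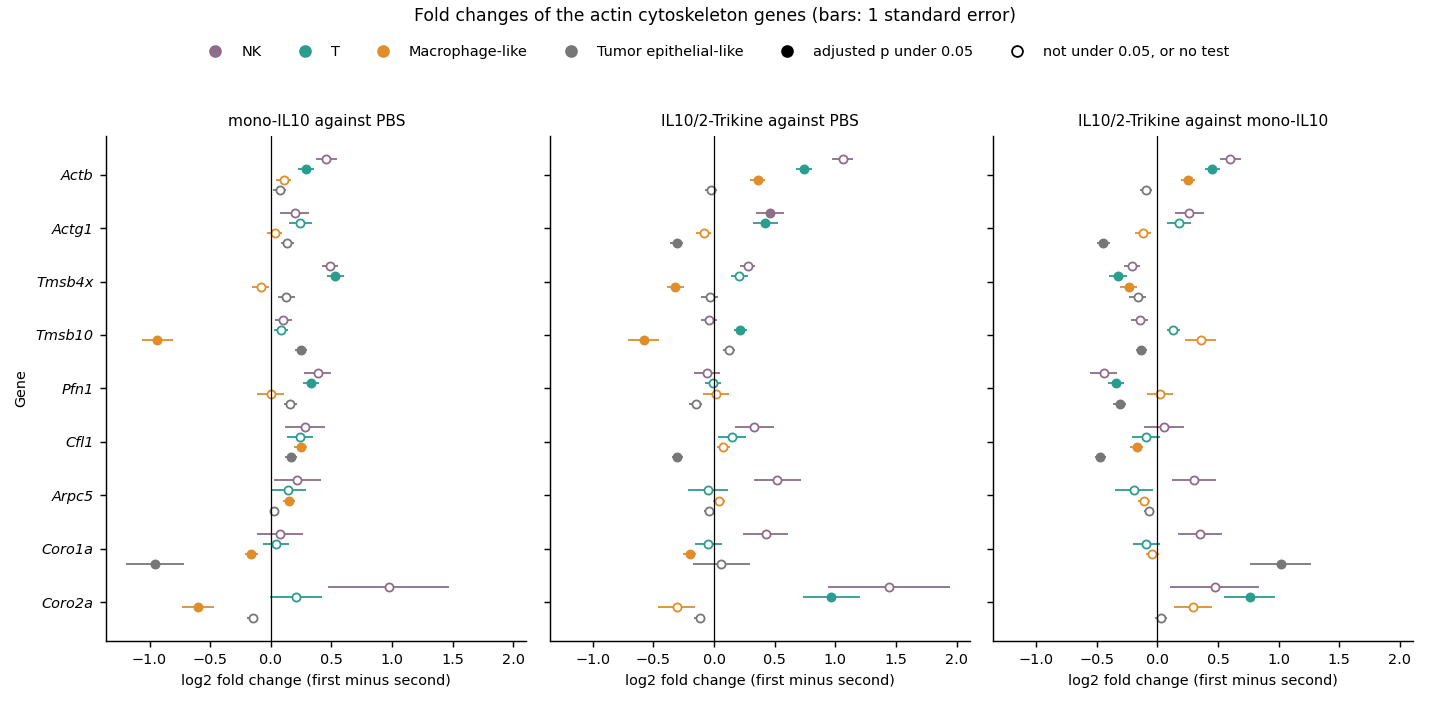
Log2 fold changes (horizontal axis, first group minus second) of the 9 genes (vertical axis) in 4 cell types (colors) and 3 comparisons (panels), with bars of 1 standard error and with filled points for tests past the threshold and open points for the others and for values without a test. Actb lies to the right of 0 with IL10/2-Trikine against PBS in T, NK and macrophage-like cells and near 0 in tumor epithelial-like cells.

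Tumor epithelial-like cells gave a different picture for actin itself. Actb had 3271 to 3638 CPM in PBS, 3029.9 to 3551 in mono-IL10 and 3157 to 3548 in IL10/2-Trikine, with overlap between all groups and log2 differences of -0.025, -0.10 and 0.072 for IL10/2-Trikine from PBS, IL10/2-Trikine from mono-IL10 and mono-IL10 from PBS. None of these 3 passed the threshold with edgeR (adjusted p = 0.771, 0.152 and 0.434), except that the second did without mono-IL10 mouse 4 (-0.13, edgeR adjusted p = 0.0368). Without size factors the third was -0.045, with the sign of the difference of the means. Of the 9 genes 2 passed with IL10/2-Trikine against PBS, and both were lower (Actg1 and Cfl1), where 10.5% of all 14904 genes were called higher and 11.6% lower. Against mono-IL10 1 was higher (Coro1a) and 4 lower (Actg1, Cfl1, Pfn1 and Tmsb10), where 14.9% and 17.8% were (32.8% in all). With mono-IL10 against PBS 2 were higher (Tmsb10 and Cfl1) and 1 lower (Coro1a), where 4.94% and 2.31% were (7.25% in all).

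Cfl1 had 852, 929, 936, 871 and 888 CPM in PBS, 970.4, 943, 950.1, 846 and 925 in mono-IL10 and 709.8, 730.5, 736, 676 and 685 in IL10/2-Trikine tumor epithelial-like cells. All IL10/2-Trikine mice lay below all mice of the other groups, which overlapped. The difference of IL10/2-Trikine was -0.30 ± 0.048 from PBS (log2, SE, edgeR adjusted p = 0.000359) and -0.47 ± 0.049 from mono-IL10 (log2, SE, edgeR adjusted p = 5.06e-06). That of mono-IL10 from PBS, 0.17 ± 0.048 (SE, edgeR adjusted p = 0.0449), was lost on leaving out any mouse other than PBS mouse 2 and mono-IL10 mouse 4, with log2 differences of 0.13 to 0.18 and edgeR adjusted p from 0.0506 to 0.141. It was also lost without size factors, at 0.051 (edgeR adjusted p = 0.379), and with RLE size factors, at 0.16 (edgeR adjusted p = 0.0523).

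Actg1 had 2353, 2316, 2240.5, 2298 and 2354 CPM in PBS tumor epithelial-like cells, 2432, 2484, 2233, 2111 and 2449 in mono-IL10 and 1779.7, 1970.2, 1757, 1720.5 and 1854 in IL10/2-Trikine. As for Cfl1, every IL10/2-Trikine mouse lay below every mouse of the other groups, which overlapped. The difference of IL10/2-Trikine was -0.31 ± 0.052 from PBS (log2, SE, edgeR adjusted p = 0.000486) and -0.45 ± 0.052 from mono-IL10 (log2, SE, edgeR adjusted p = 1.37e-05). Pfn1 was lower with IL10/2-Trikine than with mono-IL10 by -0.31 ± 0.055 (log2, SE, edgeR adjusted p = 0.000425). Its difference from PBS, -0.15 ± 0.055 (SE, edgeR adjusted p = 0.0559), was outside the threshold and moved inside it without PBS mouse 4, mono-IL10 mouse 1, 4 or 5 or IL10/2-Trikine mouse 1 or 2, with edgeR adjusted p from 0.0224 to 0.0492, and without size factors, at -0.19 (edgeR adjusted p = 0.00392). With mono-IL10 against PBS, Pfn1 passed only without PBS mouse 2 (0.19, edgeR adjusted p = 0.0488) or mono-IL10 mouse 4 (0.18, edgeR adjusted p = 0.0385), and Actg1 only without mono-IL10 mouse 4 (0.16, edgeR adjusted p = 0.0442), of the mice left out in turn.

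The IL10/2-Trikine tumor epithelial-like cells, in which Cfl1 and Actg1 were lower, also stood apart in depth and markers. Their median number of UMIs per cell was 9734 to 12060 over the mice, against 23561 to 30776 in PBS and 33163 to 43176 in mono-IL10. The 7 tumor epithelial markers, all detected in every mouse, summed to 3925 to 4218 CPM, below the 4387 to 5903 of PBS and the 4990.1 to 5594 of mono-IL10. The 7 NK markers summed to 39.2 to 66.3 CPM, against 25.1 to 36.1 and 26.8 to 47.1. Klra4 was the highest of them in every group, at 27.9 CPM with IL10/2-Trikine, 27.3 in PBS and 35.4 with mono-IL10. The higher sum with IL10/2-Trikine than in PBS thus lay mainly in the other NK markers. With every mouse thinned to the lowest total, the differences of IL10/2-Trikine from PBS were -0.30 for Cfl1 and -0.31 for Actg1 (edgeR adjusted p = 0.000222 and 0.000422). The part of depth per cell and of these markers was not tested.

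Tmsb10 was at 6559 ± 406 CPM (mean ± SD, n = 5 mice per group) in PBS, and 7198 ± 359 and 6945 ± 459 with mono-IL10 and IL10/2-Trikine. It was higher in mono-IL10 than in PBS by 0.25 ± 0.049 (log2, SE, edgeR adjusted p = 0.00603), the opposite sign from macrophage-like cells. Without size factors it was 0.13 (edgeR adjusted p = 0.0618), outside the threshold. The difference of IL10/2-Trikine from mono-IL10, -0.13 ± 0.049 (SE, edgeR adjusted p = 0.0498), was lost on leaving out any mouse other than PBS mouse 3, mono-IL10 mouse 4 and IL10/2-Trikine mouse 3, with edgeR adjusted p up to 0.178, and without size factors it was -0.051 (edgeR adjusted p = 0.438) and with RLE size factors -0.13 (edgeR adjusted p = 0.0553). That of IL10/2-Trikine from PBS, outside the threshold with all mice, passed without PBS mouse 3 (0.15, edgeR adjusted p = 0.0426) or IL10/2-Trikine mouse 1 (0.15, edgeR adjusted p = 0.0332).

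Coro1a was present at low levels in tumor epithelial-like cells, at 9.84, 11.4, 10.7, 14.6 and 8.52 CPM in PBS, 6.99, 4.66, 4.01, 6.68 and 3.94 in mono-IL10 and 20.8, 11.1, 9.92, 7.20 and 8.71 in IL10/2-Trikine. All mono-IL10 mice lay below all mice of the other groups, which overlapped, and IL10/2-Trikine mouse 1 was the highest. The difference of mono-IL10 from PBS was -0.96 ± 0.24 (log2, SE, edgeR adjusted p = 0.0249) and that of IL10/2-Trikine from mono-IL10 1.01 ± 0.25 (log2, SE, edgeR adjusted p = 0.00493). The first was lost without PBS mouse 4 or mono-IL10 mouse 2, 3 or 5 (edgeR adjusted p = 0.0744, 0.0600, 0.0615 and 0.0638). The 12 macrophage markers moved with it, all 12 detected in each group, and summed to 228 to 445 CPM in PBS, 84.1 to 195 in mono-IL10 and 166 to 776 in IL10/2-Trikine, and their part in this result was not tested. With all mice, Tmsb4x, Arpc5 and Coro2a did not pass with edgeR in tumor epithelial-like cells, with log2 differences of -0.16 to 0.13, -0.072 to 0.029 and -0.15 to 0.030, and DESeq2 placed Coro2a inside the threshold with mono-IL10 against PBS (DESeq2 adjusted p = 0.0410). With 1 mouse left out, edgeR called Tmsb4x lower with IL10/2-Trikine than with mono-IL10 without IL10/2-Trikine mouse 1 (-0.22, edgeR adjusted p = 0.00697), and Arpc5 without mono-IL10 mouse 4 (-0.091, edgeR adjusted p = 0.0493). Coro2a was called lower than in PBS with IL10/2-Trikine without PBS mouse 3 (-0.14, edgeR adjusted p = 0.0470), and with mono-IL10 without PBS mouse 3, mono-IL10 mouse 1 or IL10/2-Trikine mouse 1 or 2, with edgeR adjusted p from 0.0284 to 0.0471. Without size factors it was called lower than in PBS with both, at -0.16 (edgeR adjusted p = 0.0343) with IL10/2-Trikine and -0.27 (edgeR adjusted p = 0.00355) with mono-IL10.

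Whether a treatment effect differed between cell types was tested for T cells, macrophage-like cells and tumor epithelial-like cells, in pairs and with the mouse as a block. The tests with tumor epithelial-like cells were added after the data had been seen, and effects in NK cells were not tested against the others. Size factors were computed anew over both cell types of a pair, so these differences are not those between the log2 differences given above. For Actb the effect of IL10/2-Trikine against PBS was larger in T cells than in tumor epithelial-like cells by 0.65 ± 0.091 (edgeR adjusted p = 2.66e-07) and in macrophage-like than in tumor epithelial-like cells by 0.39 ± 0.067 (edgeR adjusted p = 0.00157), where 2.32% and 5.49% of all genes passed. Between T cells and macrophage-like cells the difference of 0.28 ± 0.13 (edgeR adjusted p = 0.340) was not past the threshold, where 2.65% of all genes passed. Without size factors this Actb difference passed, at 0.36 (edgeR adjusted p = 0.0480). So did those of Actg1, at 0.48, and Tmsb4x, at 0.50 (edgeR adjusted p = 0.0292 and 0.000914).

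For Tmsb10 the effect in T cells exceeded that in macrophage-like cells by 1.05 ± 0.15 (edgeR adjusted p = 7.48e-06) with mono-IL10 against PBS and by 0.66 ± 0.15 (edgeR adjusted p = 0.00570) with IL10/2-Trikine against PBS, the latter 0.49 ± 0.17 (edgeR adjusted p = 0.270) and outside the threshold without the Cycling_T cells. The effect in macrophage-like cells lay below that in tumor epithelial-like cells, at -1.14 ± 0.13 (edgeR adjusted p = 9.38e-06) and -0.67 ± 0.13 (edgeR adjusted p = 0.00323). For Tmsb4x the effect of mono-IL10 against PBS was larger in T cells than in macrophage-like cells by 0.65 ± 0.12 (edgeR adjusted p = 0.000904) and than in tumor epithelial-like cells by 0.46 ± 0.086 (edgeR adjusted p = 0.000640). Coro2a differed between T cells and macrophage-like cells by 1.25 ± 0.31 (edgeR adjusted p = 0.0132) with IL10/2-Trikine against PBS. Of the 81 such tests of the 9 genes, 26 passed. The share of all genes that passed was 2.97% and 2.55% for T cells and macrophage-like cells with IL10/2-Trikine and mono-IL10 compared and with mono-IL10 and PBS compared, 3.64% and 0.588% for T cells and tumor epithelial-like cells, and 12.0% and 15.8% for macrophage-like and tumor epithelial-like cells.

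**Figure D4:**
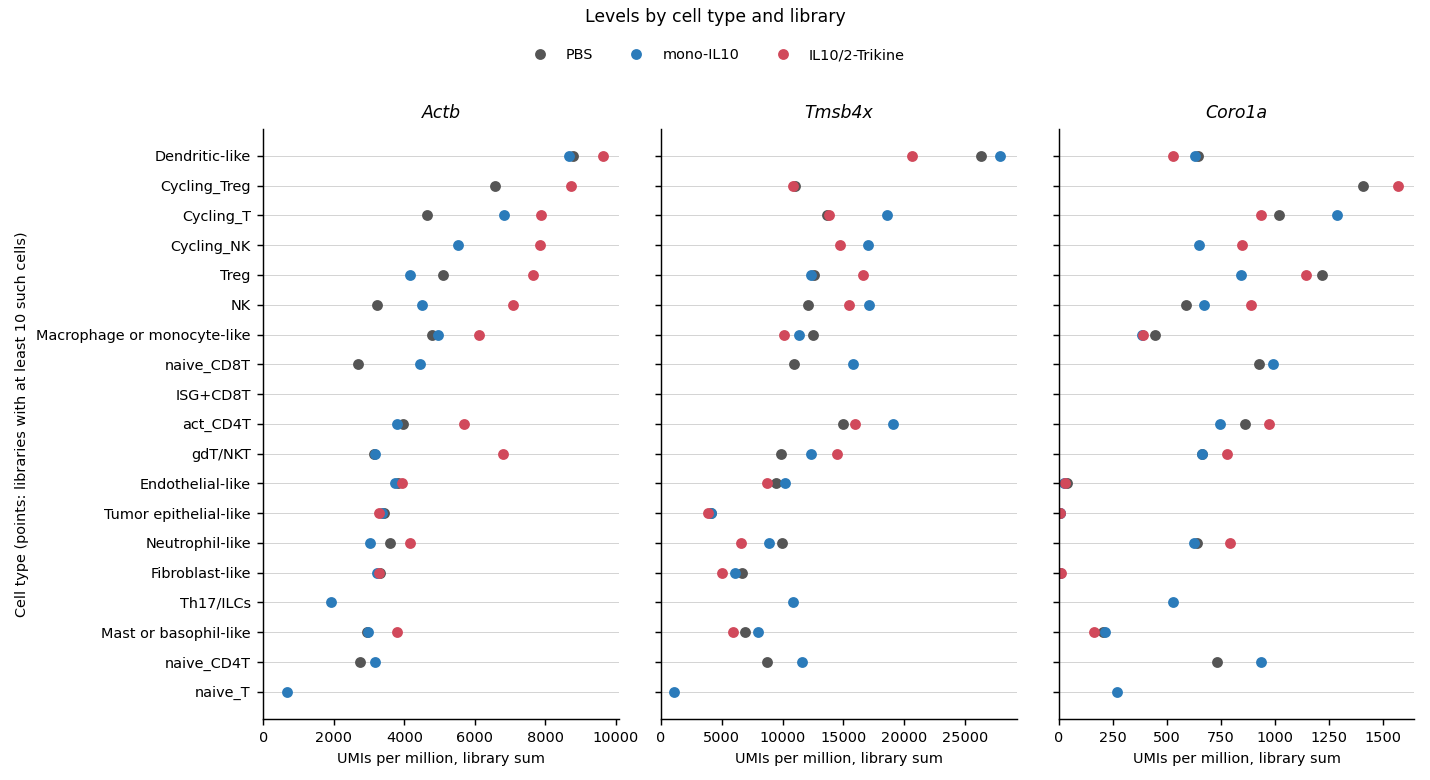
Level of Actb, Tmsb4x and Coro1a (panels) in CPM (horizontal axis from 0) in each cell type (vertical axis), 1 point per library with at least 10 such cells, colored by treatment and without error bars because each treatment is 1 library. Cells with and without a mouse are summed. For Actb the IL10/2-Trikine point lies to the right of the PBS point in the 6 annotated clusters that have both.

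For the 12 annotated clusters side by side the library levels are given as a description. NK and Cycling_NK cells are among the 12, and the Actb level in NK cells is a value on which the list was chosen. The Actb level was higher in the IL10/2-Trikine library than in the PBS library in 12 of 12 clusters, some of which had 1 or 2 cells in a library, and in the 6 clusters with at least 10 cells in both the ratio ran from 1.33 to 2.19. It was 6808 CPM against 3147 in gdT/NKT cells (53 and 78 cells), 7866 against 4654 in Cycling_T cells (174 and 55 cells) and 7639 against 5106 in Treg cells (24 and 51 cells). Against the mono-IL10 library Actb was also higher in 12 of 12, with a ratio of 1.15 to 2.15 in the 6 clusters with enough cells. Pfn1 went the other way, with the IL10/2-Trikine library below mono-IL10 in all 6 clusters with enough cells (ratio 0.694 to 0.873), and mono-IL10 above PBS in 7 of 7 (ratio 1.13 to 1.45). These clusters share 3 libraries, so their directions are not independent of each other.

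Of 83 other genes of the actin pathway, grouped by role in a list drawn up with earlier results of these data known, 60 could be tested in T cells. There, IL10/2-Trikine against PBS had 5 higher and 1 lower, beside 5.14% and 3.83% of all genes, and the median log2 difference was 0.13 against -0.011 over all genes. The higher genes included Actn4, which crosslinks filaments (0.76 ± 0.21, edgeR adjusted p = 0.0207), Wdr1, which works with cofilin in taking filaments apart (0.69 ± 0.19, edgeR adjusted p = 0.0228), and the coronin Coro1c (0.84 ± 0.26, edgeR adjusted p = 0.0423), and the lower gene was the cofilin phosphatase gene Ssh2 (-0.81 ± 0.22, edgeR adjusted p = 0.0190). Against mono-IL10 4 were higher and 5 lower (6.05% and 6.21% of all genes), among the lower the Arp2/3 subunit Arpc3 (-0.55 ± 0.13, edgeR adjusted p = 0.00696). With mono-IL10 against PBS 0 of the 60 passed with edgeR, with 9 at an unadjusted p under 0.05, and 1.72% of all genes passed. In NK cells 56 could be tested, with 2 called for IL10/2-Trikine against PBS, both higher (Wdr1, 0.97 ± 0.20, edgeR adjusted p = 0.00874, and the Arp2/3 subunit Actr3, 0.73 ± 0.20, edgeR adjusted p = 0.0428) and 1 called against mono-IL10, also higher (Wdr1, 0.91 ± 0.18, edgeR adjusted p = 0.00848), where 1.35% and 0.286% of all genes were called higher.

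Wdr1 also had the lowest adjusted p among the listed genes that were higher in macrophage-like cells with IL10/2-Trikine against PBS (0.46 ± 0.061, edgeR adjusted p = 4.74e-05). There 7 of 82 genes tested were higher, near the 8.51% of all genes, and 14 lower, where 8.07% of all genes were, the latter with 3 of the 5 formins, which build unbranched filaments, such as Fmnl1 (-0.58 ± 0.069, edgeR adjusted p = 1.66e-05). With mono-IL10 against PBS 14 were higher and 23 lower (12.0% and 13.3% of all genes), again with 4 of the 5 formins lower, 3 of the 8 other Arp2/3 genes higher, such as Arpc4 (0.29 ± 0.048, edgeR adjusted p = 0.000209), and the crosslinker Lsp1 lower (-1.23 ± 0.11, edgeR adjusted p = 4.46e-07). Between the treatments 6 were higher with IL10/2-Trikine and 6 lower (5.18% and 5.70% of all genes). In tumor epithelial-like cells all 83 were tested, and 6 were higher and 23 lower when IL10/2-Trikine was compared with PBS, 16 and 31 when it was compared with mono-IL10, and 5 and 3 when mono-IL10 was compared with PBS. Over all genes the shares called higher and lower were 10.5% and 11.6%, 14.9% and 17.8%, and 4.94% and 2.31% in that order. Of the 8 other Arp2/3 genes, 6 were called against mono-IL10 and all 6 were lower, such as Arpc1b (-0.35 ± 0.042, edgeR adjusted p = 1.68e-05), and Myh9, the heavy chain of non-muscle myosin, was lower than in PBS (-0.36 ± 0.044, edgeR adjusted p = 2.88e-05). The list's medians in these 6 comparisons lay between -0.087 and 0.015.

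Over 15 cell types and the 3438 genes with enough counts, the genes whose levels followed Actb most closely were Wdr1 (Pearson r = 0.863), Actr3 (0.771), Dbnl (0.767), Irf8 (0.763) and Tmsb4x (0.759). For Tmsb4x they were Dbnl (0.916), Tmem123 (0.892), Arpc5 (0.889), Edem1 (0.885) and Psmb8 (0.885). Wdr1, the gene closest to Actb across cell types, was among the pathway genes that were higher with IL10/2-Trikine in T, NK and macrophage-like cells. These correlations are over cell types that share libraries and mice and have unequal depth, and carry no test.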

How the data were processed

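Each treatment was 1 library of the 10x 5′ kit, with 5 mice marked by hashtag antibodies. The authors made UMI counts with Cell Ranger (GRCm39) and deposited filtered matrices of counts, not normalized, with gene and hashtag features side by side. They also deposited a table of T and NK cells with cluster names, UMI counts per cell and the percent of UMIs from mitochondrial genes, and its cells had at least 1000 genes and at most 10% mitochondrial UMIs. The submitters' processing notes name Seurat 5.1.0 and DESeq2 1.46.0. That table also held 7858 cells of groups without a library here, which were not used.

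The same limits on genes and mitochondrial UMIs were applied to all barcodes. Mice were called from the hashtags with Seurat 5.3.0 (HTODemux), which gave 97.1% to 98.6% of the annotated cells the call in the authors' table and no cell another mouse. Barcodes called as doublets (8.64% to 13.3%) were left out unless the authors had annotated them. Negative barcodes (17.3% to 30.2%) stayed in the clustering and in the sums over libraries. Cells without a mouse were left out of the sums per mouse, and annotated cells kept the mouse of the authors' table. Annotated T and NK clusters kept their names. Other cells were clustered (Python 3.11.15, scikit-learn 1.9.0, 40 components and 60 clusters) and called "-like" by marker lists, with a rule for mixed clusters set after the clusters had been inspected. Counts were summed per mouse and cell type, for mice with at least 10 cells, and tested with edgeR 4.0.16 (filterByExpr, TMM, quasi-likelihood, 1 fit of all 3 groups per cell type, R 4.3.3), with Benjamini-Hochberg adjustment over all genes tested and a threshold of 0.05. Differences of effect between cell types were tested in 1 fit per pair of cell types, with the mouse as a block and TMM factors over both together. DESeq2 1.42.0 and other filters, size factors, depths and clusters were tried as alternatives. The fits were also run on simulated counts with added changes, the same dispersion for every gene and no library effect. That run was a check of the code and does not show how reliable the calls on the real counts are. The mouse numbers name hashtags and pair nothing between treatments.

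The 9 genes and all gene lists were chosen with earlier results of these data known. The 9 genes were always named, other pathway genes only among the 4 called genes with the lowest adjusted p in each direction, and similar genes by the 5 highest correlations of log2(CPM + 1) over cell types. No interval is given for single values, since the spread between mice is, and UMI counts limit the precision of low genes such as Coro2a. Coordinates and sequences came from GENCODE and RefSeq on GRCm38, another build than that of the counts, and no coordinates were carried between builds.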

Additional observations from a re-analysis of the deposited data

Results flagged for a closer look

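In 4 of 108 groups of 4 or 5 mice that were looked at, 1 mouse stood apart from the others of its group by Dixon's criterion, which chance meets in about 1 of 20 groups. Coro1a in NK cells was at 727 CPM in mono-IL10 mouse 5 and at 652 to 661 in the other mono-IL10 mice. In the same mouse Tmsb10 in T cells was at 11524 CPM, against 10444 to 10626. Tmsb4x in tumor epithelial-like cells was at 3977 CPM in mono-IL10 mouse 4, below the 4289 to 4364 of the others. Coro1a in tumor epithelial-like cells was at 20.8 CPM in IL10/2-Trikine mouse 1, against 7.20 to 11.1. In that mouse the 12 macrophage markers of these cells summed to 776 CPM, against 166 to 250.2 in the other 4, and the part of this was not tested.

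A treatment effect differed between cell types in 26 of 81 tests (edgeR, adjusted over all genes of each test). Over all genes, 0.588% to 15.8% passed by pair and comparison. The lowest share was for T cells and tumor epithelial-like cells, and the highest for macrophage-like and tumor epithelial-like cells, both with mono-IL10 against PBS. Differences of log2 effects are those of the joint fits, with size factors over both cell types, and not those between the separate fits. Between T cells and macrophage-like cells, the effect of IL10/2-Trikine against PBS was larger in T cells by 0.66 for Tmsb10 and 1.25 for Coro2a, and that of mono-IL10 against PBS by 0.65 for Tmsb4x and 1.05 for Tmsb10. Compared with tumor epithelial-like cells, T cells had a larger effect of IL10/2-Trikine against PBS by 0.65 for Actb, 0.61 for Actg1 and 1.001 for Coro2a. For IL10/2-Trikine against mono-IL10 the difference of T cells from tumor epithelial-like cells was 0.37 for Actb, 0.45 for Actg1, -0.34 for Tmsb4x and -1.29 for Coro1a, and for mono-IL10 against PBS it was 0.46 for Tmsb4x and 1.07 for Coro1a.

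Macrophage-like cells differed from tumor epithelial-like cells in the effect of IL10/2-Trikine against PBS by 0.39 for Actb, -0.28 for Tmsb4x, -0.67 for Tmsb10 and 0.38 for Cfl1. For IL10/2-Trikine against mono-IL10 the difference was 0.33 for Actb, 0.30 for Actg1, 0.47 for Tmsb10, 0.31 for Pfn1, 0.27 for Cfl1 and -1.06 for Coro1a. For mono-IL10 against PBS it was -1.14 for Tmsb10, 0.84 for Coro1a and -0.44 for Coro2a. Adjusted p of these 26 tests ran from 1.50e-07 to 0.0476, both in tests of T cells with tumor epithelial-like cells, for Coro1a and Coro2a. Coro1a was low in tumor epithelial-like cells, at 3.94 to 20.8 CPM over the mice. In the fit of T cells alone the effects of Coro1a were 0.045 with mono-IL10 against PBS and -0.092 with IL10/2-Trikine against mono-IL10. The part of the macrophage markers of tumor epithelial-like cells in the differences of Coro1a was not tested.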

How the results depend on the processing

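Settings that could change the calls were tried 1 at a time, and single macrophage-like clusters, Cycling_T cells alone and all fits of tumor epithelial-like cells were chosen after seeing the data. Of the 2589 recomputed log2 fold changes, 94 differed in sign with neither value past the threshold and 2 changed the direction of a called value, both for Coro1a in macrophage-like cells: 0.25 in cluster 19 alone with IL10/2-Trikine against PBS and 0.012 in cluster 51 alone with mono-IL10 against PBS. The cause was not tested. Each mouse was left out in turn, and the number of the 9 genes past the threshold then ran, for IL10/2-Trikine against PBS, IL10/2-Trikine against mono-IL10 and mono-IL10 against PBS, from 3 to 5, 3 to 5 and 1 to 3 in T cells (4, 4 and 3 with all mice), from 4 to 5, 1 to 4 and 3 to 5 in macrophage-like cells (4, 3 and 5) and from 2 to 4, 4 to 7 and 1 to 5 in tumor epithelial-like cells (2, 5 and 3). In NK cells it ran from 0 to 1 in both IL10/2-Trikine comparisons (1 and 0 of 7 genes).

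In the same order of comparisons, T cells gave 1, 1 and 1 without Cycling_T cells and 1, 2 and 0 in Cycling_T cells alone, where 3 genes had an unadjusted p under 0.05 in the last with edgeR. Over all genes, Cycling_T cells alone gave 26, 107 and 10 calls of 1935 genes. Without the filter on low counts T cells gave 1 and 2 in the IL10/2-Trikine comparisons, where 295 and 492 of 15878 genes were called. With at least 20 cells per mouse they gave 2 against PBS, where 160 of 3600 genes were called. With DESeq2 they gave 3 and 3 in the IL10/2-Trikine comparisons, where 242 of 3252 and 319 of 3559 genes were called. In NK cells the count against PBS was 3 with DESeq2, 2 with Cycling_NK cells, 2 with each cell thinned to 1500 UMIs, and 0 with edgeR without the filter, with every mouse thinned to the lowest total and with at least 20 cells per mouse (5, 2 and 5 at an unadjusted p under 0.05). Over all genes these settings called 108 of 693, 104 of 2355, 57 of 780, 51 of 13920, 27 of 636 and 18 of 3319. Against mono-IL10 the count was 1 with DESeq2, with every mouse thinned, with at least 20 cells per mouse and with Cycling_NK cells. There 56 of 693, 8 of 636, 22 of 3319 and 56 of 2355 genes were called. Macrophage-like cells gave 1 for IL10/2-Trikine against mono-IL10 and 3 for mono-IL10 against PBS both without the filter and with every mouse thinned, and 2 for IL10/2-Trikine against PBS with at least 2000 detected genes. Over all genes, 1421 and 2900 of 24114 were called without the filter and 407 and 1158 of 8680 with every mouse thinned. With at least 2000 detected genes, 1083 of 11941 were called. In clusters 19, 27, 30, 39 and 51 alone they gave, in the same order of comparisons, 1, 2, 2, 1 and 1 in the first comparison, 0, 0, 0, 1 and 1 in the second and 1, 0, 1, 1 and 1 in the third by edgeR, and the counts of 0 had 4, 0 and 2 and, for the last comparison, 3 genes at an unadjusted p under 0.05. Over all genes, the first comparison called 211 of 6025, 258 of 5834, 362 of 7764, 229 of 5250 and 253 of 5681 in these clusters. Of the same numbers of genes, the second called 58, 155, 30, 234 and 100 and the third 429, 423, 660, 315 and 303. In tumor epithelial-like cells IL10/2-Trikine against PBS gave 4 without size factors, and mono-IL10 against PBS 1 with every mouse thinned. Over all genes these settings called 3430 of 14904 and 669 of 13268. For the difference of effect between T cells and macrophage-like cells, IL10/2-Trikine against PBS gave 2, but 5 without size factors and 1 without Cycling_T cells, and IL10/2-Trikine against mono-IL10 gave 1 without Cycling_T cells. Over all genes these fits called, in that order, 251 and 262 of 9461 and 70 and 202 of 11133.

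Over all genes, the same order of comparisons gave 286, 391 and 55 calls of 3189 genes tested in T cells. It gave 41, 137 and 26 of 2886 without Cycling_T cells and 106, 111 and 13 of 927 with every mouse thinned. NK cells gave 62 and 20 calls of 2448 genes, and 108 and 56 of 693 with DESeq2. Macrophage-like cells gave 2075, 1362 and 3173 of 12520, and 999, 407 and 1158 of 8680 with every mouse thinned. The number of genes tested moved with the setting, so these counts are not on the same base. Size factors moved the share of calls that were higher. Without them it went, for IL10/2-Trikine against mono-IL10, from 49.4% to 60.3% in T, 35.0% to 57.1% in NK, 47.6% to 73.2% in macrophage-like and 45.6% to 69.1% in tumor epithelial-like cells, and for mono-IL10 against PBS from 69.1% to 41.4% in T, 47.4% to 29.0% in macrophage-like and 68.1% to 8.45% in tumor epithelial-like cells, where calls numbered 1081 with and 2792 without them. For IL10/2-Trikine against PBS it went from 47.7% to 31.1% in tumor epithelial-like cells. No paired analysis was possible because the labels give the mice no replicate numbers that are shared between treatments, and a hashtag number names an antibody. Cell numbers were low in T and NK cells, with 17 and 10 cells in the smallest mouse, and their part was not tested.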

Other observations

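The cluster that the authors named naive_T, with 25 cells over the libraries, was left out of the order of cell types because of its size. It had Actb at 748 CPM, with an Actb UMI in 36.0% of its cells.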
